A study of Homo sapiens with 4 samples.

Results

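The Krüppel-like factors (KLFs) are transcription factors that bind GC-rich and CACCC-containing DNA through zinc fingers at their C-terminal end. The genes described here are the rows of the deposited table whose symbol is KLF2, KLF3, KLF4, KLF5, KLF6, KLF7, KLF9, KLF10, KLF11 or KLF13, which gave 10 genes of the 60048 in the table. EU-seq libraries of nascent RNA came from HCT116, a human colorectal carcinoma cell line of genotype RAD21-mAC, in which the cohesin subunit RAD21 carries a degron tag, so that the protein is degraded when auxin is given. Control cells were given DMSO (2 libraries), and auxin cells were given indole-3-acetic acid at 0.5 mM over 3 h (2 libraries). All the cells carried the tagged RAD21 and were labelled with 0.5 mM of the uridine analogue EU for 20 min, and the labelled RNA was captured and sequenced. No library of untagged cells given auxin was analysed here, so an effect of the compound and an effect of RAD21 loss cannot be told apart. The labels do not say whether replicates came from separate cultures, so p-values measure only the spread between these libraries.

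KLFs share a DNA-binding domain and differ in the cofactors they recruit. KLF2, KLF4, KLF5, KLF6 and KLF7 mostly act as activators, KLF3 binds the corepressor CtBP, and KLF9, KLF10, KLF11 and KLF13 bind the corepressor SIN3A. In the intestinal epithelium KLF5 is known from proliferating crypt cells and KLF4 from differentiated cells near the surface, KLF5 has a super-enhancer in colorectal cancer cells, and several KLF genes are transcribed within minutes of a stimulus.

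Each promoter window holds the 250 bases before a RefSeq start (GRCh38.p14). To show their range of base content, those of 4 genes are printed, 5′ to 3′ on the gene's strand. They are KLF9 and KLF4, which had the highest and the lowest log2 fold change of the members, KLF5, the gene with the super-enhancer, and KLF2, which has as many GC boxes as KLF4. Capitals mark the GC box core GGGCGG and the KLF-type motif CACCC, each searched on both strands. The windows are KLF9 at chr9:70414658-70414907 (minus strand), KLF4 at chr9:107489770-107490019 (minus strand), KLF5 at chr13:73054726-73054975 (plus strand) and KLF2 at chr19:16324576-16324825 (plus strand).
KLF9: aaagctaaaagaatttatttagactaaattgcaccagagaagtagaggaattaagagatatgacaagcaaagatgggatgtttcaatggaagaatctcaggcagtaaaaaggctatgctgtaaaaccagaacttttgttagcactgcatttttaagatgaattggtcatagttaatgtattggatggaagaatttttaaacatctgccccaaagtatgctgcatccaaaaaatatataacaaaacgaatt
KLF4: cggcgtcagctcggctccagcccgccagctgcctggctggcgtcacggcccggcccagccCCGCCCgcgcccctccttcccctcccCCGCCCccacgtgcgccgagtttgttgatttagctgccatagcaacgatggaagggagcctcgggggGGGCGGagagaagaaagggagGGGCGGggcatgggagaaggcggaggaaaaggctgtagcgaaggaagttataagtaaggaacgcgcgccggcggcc
KLF5: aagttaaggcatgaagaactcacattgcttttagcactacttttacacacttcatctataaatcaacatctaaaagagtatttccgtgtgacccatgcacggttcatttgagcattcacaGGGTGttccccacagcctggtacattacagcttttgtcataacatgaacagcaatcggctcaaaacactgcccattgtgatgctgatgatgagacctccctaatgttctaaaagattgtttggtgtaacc
KLF2: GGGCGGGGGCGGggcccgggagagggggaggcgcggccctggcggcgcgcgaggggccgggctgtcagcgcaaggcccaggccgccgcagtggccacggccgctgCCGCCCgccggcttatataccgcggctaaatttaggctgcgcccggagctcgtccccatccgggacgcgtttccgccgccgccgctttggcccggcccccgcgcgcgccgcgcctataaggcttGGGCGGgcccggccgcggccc

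The KLF9 window was 32.4% G and C and held neither motif. The KLF5 window used, 1 of the 2 that RefSeq gives, was 40.8% G and C with 1 CACCC and 1 TATAAA. The other KLF5 window is not described here and may differ in base content and motifs. The KLF4 and KLF2 windows were 69.2% and 80.0% G and C and each held 4 GC boxes, with overlapping matches counted. Promoter windows were matched for 8 of the 10 genes. RefSeq gives 2 windows for KLF5, 4 for KLF7 and 2 for KLF11, and the one whose start lies nearest to the start of the gene in the deposited table was used. Of these 8, 5 held GGGCGG, 3 held CACCC, 1 held TATAAA and 3 held CCAAT, and of the 35116 windows in the whole RefSeq set the shares were 42.6%, 54.7%, 10.7% and 32.0%. The median over all windows was 58% G and C. Such a match describes the letters of the window and not binding.

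On the deposited scale the signal over all genes summed to 78174823 and 78585045 units in control and to 61135244 and 93113007 in auxin. The number of genes above 0 was 46570 to 47311. The values were treated as a scaled signal per gene span, introns included, and the number of reads behind them is unknown. They were brought to a common scale, called the scaled signal below. On it changes are relative to the bulk of genes, and a shift shared by all genes does not show. The filter on low values was passed by 39464 genes, all 10 KLF genes among them. The RAD21 gene lay at 5154 and 7190 in control and at 5893 and 6264 in auxin; the degron acts on the protein, so these RNA values check no label. Of 9 colorectal epithelial markers 8 had a mean of at least 50 (all but CDX1), and their summed signal was 58432 to 65477 in the 4 libraries. Leukocyte markers summed to 76.3 to 97.7 and hepatocyte markers to 16.1 to 34.8. Fibroblast markers summed to 598 and 758 in control and 919 and 1026 in auxin, nearly all of it COL1A1 with LUM at 0 to 2.25, and endothelial markers to 581 and 649 in control and 680 and 819 in auxin. Whether these have a part in the KLF results was not tested.

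The comparison asked how nascent transcription of the KLF genes differed after 3 h of auxin. KLF9 rose 2.52-fold and was the only member with a limma adjusted p under 0.05. KLF6, KLF2, KLF13, KLF3 and KLF7 had log2 fold changes from 0.62 down to 0.10, and KLF5, KLF10, KLF11 and KLF4 from -0.31 down to -0.99, none of which passed the test. The 1 call among 10 stands against 0.732% of all tested genes called in either direction (0.332% higher, 0.4% lower). In 9 of the 10 genes both auxin libraries lay outside both control libraries, 6 above and 3 below, against 38.2% of all tested genes (18.6% above and 19.6% below). At an unadjusted p under 0.05 there were 7 of 10, against 10.2%. The members carry more signal than 61.5% to 98.4% of tested genes, and among the 15182 tested genes with at least the mean signal of the lowest member, KLF9 itself, these shares were 47.4% for groups that did not overlap, 17.3% for the unadjusted p and 1.63% for calls. The median log2 fold change of the members was 0.13 and the median of its absolute value 0.45, against 0.0089 and 0.20 over all tested genes. The members were chosen with earlier results of these data known. These shares and medians therefore do not test whether KLF genes respond more than other genes. Because these are cultured cells measured in bulk, a different share of cells making an RNA and a different amount per cell cannot be told apart.

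**Figure D1:**
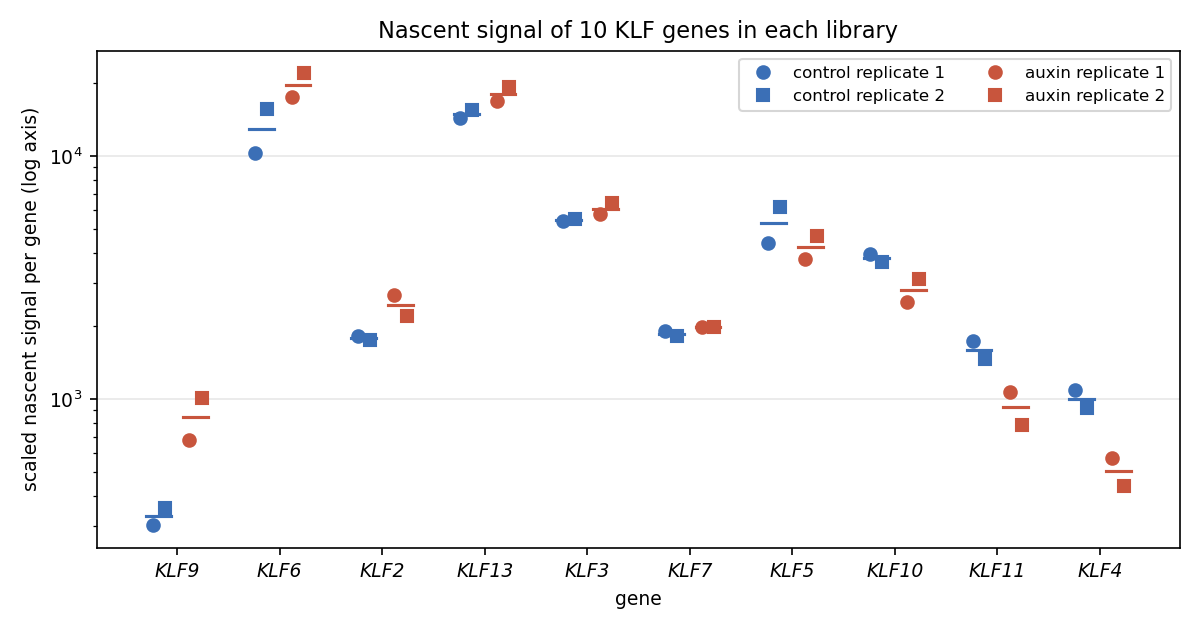
Scaled nascent signal (log axis) of the 10 KLF genes in each of the 4 libraries, ordered by log2 fold change, with control in blue, auxin in red, replicate 1 as circles, replicate 2 as squares and the group mean as a bar. The groups overlap in KLF5 alone, and the gap between groups is widest in KLF9, at 302 and 355 in control and 677 and 1008 in auxin.

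KLF9 (ENSG00000119138, GRCh38 chromosome 9, 70384597 to 70414624, minus strand, span 30028 bases), a SIN3A-binding factor known as a target of glucocorticoid and thyroid hormone receptors, had scaled signals of 302 and 355 in control and 677 and 1008 in auxin. Both auxin libraries were above both control libraries, and the auxin libraries differed more from each other than the controls did. The means were 328 ± 37.7 and 843 ± 234 (SD, n = 2 each). The log2 fold change on the log2(value + 1) scale was 1.33 with a standard error of 0.23 and a 95% interval of 0.81 to 1.85 (limma adjusted p = 0.0334), and 0.796% of tested genes had a larger one. The call rested on all the libraries but auxin replicate 1: without control replicate 1 the log2 fold change was 1.23 (adjusted p = 0.0709), without control replicate 2 it was 1.45 (0.0638) and without auxin replicate 2 it was 1.045 (0.103), while without auxin replicate 1 it was 1.63 (1.71e-04). In each of these fits 1 group is a lone library, assumed to vary like the libraries of the other group, and without either auxin replicate all genes shared 1 trend of spread (infinite prior degrees of freedom), as they did on the deposited scale. On the deposited scale it was 1.31 with an adjusted p of 0.334.

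KLF13 (ENSG00000169926, chromosome 15, 31327567 to 31435586, plus strand), a close relative of KLF9 known as an activator of the chemokine gene CCL5 in T cells, lay at 14374 and 15527 in control and 16883 and 19338 in auxin. Its groups did not overlap, but the difference was small, with a log2 fold change of 0.27 (SE 0.12, 95% interval 0.015 to 0.53, limma adjusted p = 0.446). The span of KLF13 contains the processed pseudogene UBE2CP4, whose mean signal was 109 in control and 118 in auxin.

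KLF10 and KLF11, the other SIN3A-binding members, were first described as early genes induced by TGF-beta, and both lay lower with auxin. KLF11 (ENSG00000172059, chromosome 2, 10043550 to 10054836, plus strand) had scaled signals of 1729 and 1465 in control and 1066 and 783 in auxin. Both auxin libraries were below both controls, with a log2 fold change of -0.80 (SE 0.20, 95% interval -1.24 to -0.36, limma adjusted p = 0.130). Without auxin replicate 1 its log2 fold change was -1.02, with a lone auxin library and 1 trend of spread shared by all genes. The lncRNA gene AC104794.5, on the opposite strand, shares 416 bases with the 3′ end of KLF11 and lay at 54.3 and 55.3 in control and 34.8 and 21.3 in auxin, and reads of the shared stretch cannot be assigned here. KLF10 (ENSG00000155090, chromosome 8, 102648784 to 102655725, minus strand) lay at 3957 and 3685 in control and 2511 and 3112 in auxin. Its groups did not overlap either, with a log2 fold change of -0.45 (SE 0.16, 95% interval -0.80 to -0.10, adjusted p = 0.306).

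KLF4 (ENSG00000136826, chromosome 9, 107484852 to 107489769, minus strand), the regulator of epithelial differentiation also known from reprogramming to pluripotency, had the lowest log2 fold change of the members. Its scaled signal was 1085 and 918 in control and 570 and 439 in auxin, so that both auxin libraries were below both controls. The means were 1002 ± 118 and 505 ± 92.7 (SD, n = 2 each) and the log2 fold change was -0.99 (SE 0.21, 95% interval -1.45 to -0.54, limma adjusted p = 0.0677), a value that 1.72% of tested genes lay below. Without auxin replicate 1 its log2 fold change was -1.18, again with a lone auxin library and 1 trend of spread shared by all genes. KLF4P1, a processed pseudogene elsewhere on chromosome 9, lay at 414 and 338 in control and 257 and 277 in auxin. How reads that fit both copies were assigned is not given in the sources used here, so the KLF4 and KLF4P1 values are uncertain to that extent.

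KLF5 (ENSG00000102554, chromosome 13, 73054976 to 73077541, plus strand), the crypt factor that drives epithelial proliferation, was the one member whose groups overlapped. It lay at 4382 and 6203 in control and 3761 and 4698 in auxin, so that auxin replicate 2 was above control replicate 1. The controls differed by 0.50 on the log2 scale, more than the log2 fold change of -0.31 (SE 0.19, 95% interval -0.72 to 0.10, limma adjusted p = 0.669), so no difference between groups could be told from the spread between replicates. Leaving out control replicate 2 gave -0.060, and leaving out control replicate 1 gave -0.55. The stretch between the neighbouring protein-coding genes PIBF1 and KLF12 holds 9 other genes of the table. Of these, 4 were tested and 0 were called by limma (against 0.732% of all tested genes). This stretch was chosen for description after earlier results were known. LINC00393, a lncRNA gene 336 kb beyond KLF5, lay at 159 and 220 in control and 238 and 245 in auxin (log2 fold change 0.37, SE 0.25, adjusted p = 0.73). Its groups did not overlap, which held for 38.2% of all tested genes. LINC00392, 497 kb beyond KLF5, lay at 108 and 75.7 in control and 92.8 and 86.5 in auxin, and its groups overlapped. At an unadjusted p under 0.05 there were also 0 of the 4 (against 10.2% of all tested genes). At these shares so short a list may well hold none. Their signal was also low, so small changes in this stretch were not detectable here.

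KLF6 (ENSG00000067082, chromosome 10, 3775997 to 3785281, minus strand), a factor induced by tissue injury, lay at 10352 and 15648 in control and 17516 and 21986 in auxin. Both auxin libraries were above both controls, but the controls themselves differed by 0.60 on the log2 scale, close to the log2 fold change of 0.62 (SE 0.18, 95% interval 0.22 to 1.03, limma adjusted p = 0.207). Without auxin replicate 1 the log2 fold change was 0.80, in a fit with a lone auxin library and 1 trend of spread shared by all genes. Without control replicate 1 or 2 the log2 fold change was 0.34 or 0.92.

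KLF2 (ENSG00000127528, chromosome 19, 16324826 to 16328685, plus strand), known for keeping endothelial cells and T cells quiescent, lay at 1818 and 1751 in control and 2694 and 2195 in auxin. Both auxin libraries were above the controls, with a log2 fold change of 0.45 (SE 0.16, 95% interval 0.082 to 0.81, limma adjusted p = 0.343). KLF7 (ENSG00000118263, chromosome 2, 207074137 to 207165948, minus strand), best known from neurons, lay at 1904 and 1810 in control and 1989 and 1988 in auxin. The groups were apart by little, and the 95% interval of its log2 fold change of 0.099 (SE 0.15, adjusted p = 0.939) ran from -0.24 to 0.44. KLF3 (ENSG00000109787, chromosome 4, 38664199 to 38701517, plus strand), the CtBP-binding repressor of fat and blood cell development, lay at 5427 and 5499 in control and 5765 and 6400 in auxin. Its log2 fold change was 0.15 (SE 0.13, 95% interval -0.14 to 0.44, adjusted p = 0.824). KLF3-AS1, a lncRNA gene that starts head to head with KLF3 and shares 33 bases with it, lay at 451 and 443 in control and 406 and 421 in auxin.

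Members of 1 cofactor class differed in sign. Among the SIN3A-binding members, KLF9 and KLF13 had positive and KLF10 and KLF11 negative log2 fold changes, and among the activators KLF2, KLF6 and KLF7 had positive and KLF4 and KLF5 negative ones. Of these only the rise of KLF9 passed the test.

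The rest of the family was described in the same way. Of 17 other KLF and SP genes 15 were tested and 0 were called by limma (against 0.732% of all tested genes). Of the 15, 1 had an unadjusted p under 0.05 (6.67% against 10.2%), and 3 had groups that did not overlap (20% against 38.2%). Their median log2 fold change was 0.038. KLF12, a CtBP-binding relative of KLF3, had the smallest p: it lay at 9806 and 11784 in control and 13183 and 14651 in auxin, with a limma adjusted p of 0.313 (log2 fold change 0.37, SE 0.13). SP1, which binds GC boxes in very many promoters, lay at 6722 and 8110 in control and 7622 and 7791 in auxin, with a 95% interval of its log2 fold change of -0.24 to 0.36. KLF1, the erythroid factor, and KLF18 were too low to be tested, with KLF18 listed at 0 in all 4 libraries.

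**Figure D2:**
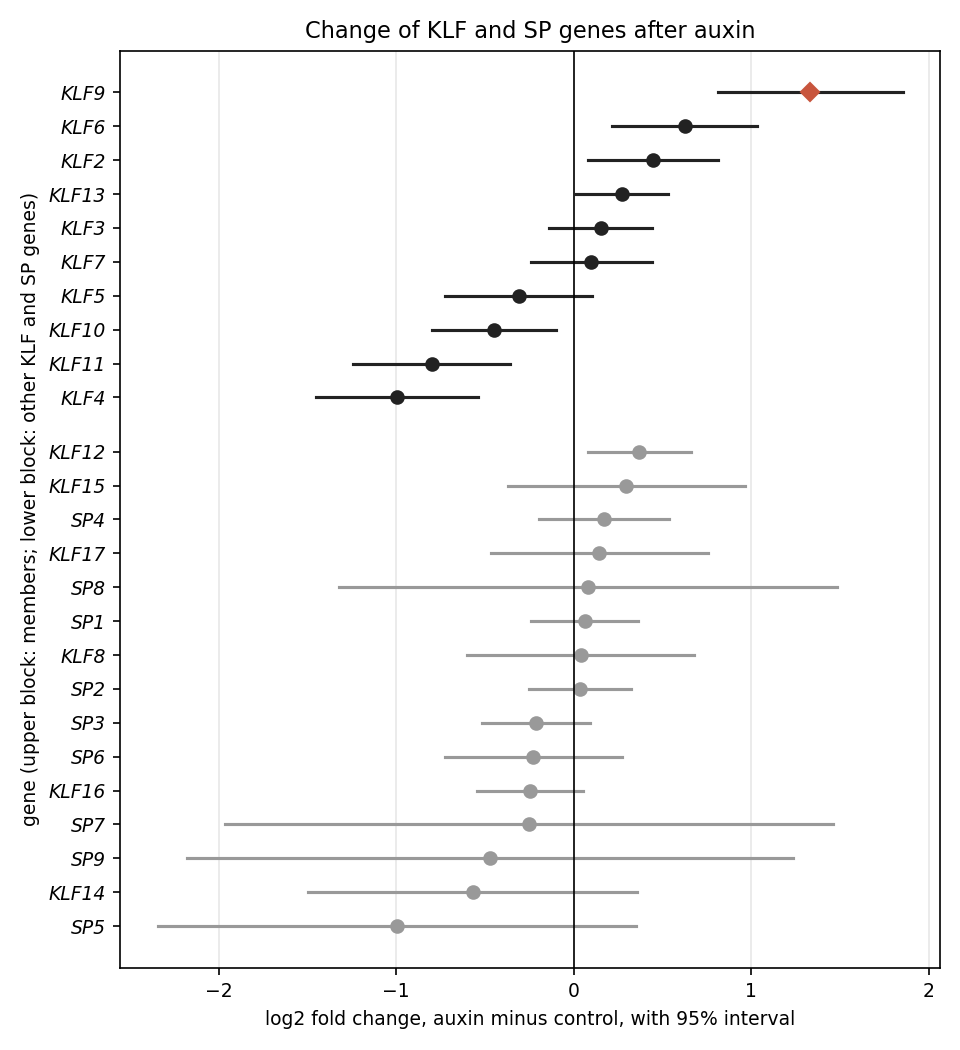
Log2 fold change (auxin minus control, with 95% interval) of the 10 KLF members (upper block) and of the 15 other tested KLF and SP genes (lower block). The diamond marks KLF9 at 1.33, the one gene with an adjusted p under 0.05, and the widest intervals belong to the low-signal genes SP5, SP7, SP8 and SP9.

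Levels were compared between genes per kb of gene span, since a longer gene collects more signal. In control KLF6 was highest at 1400 ± 403 per kb (SD, n = 2), followed by KLF10 at 550 ± 27.7, KLF2 at 462 ± 12.4, KLF5 at 234.5 ± 57.0, KLF4 at 204 ± 24.04, KLF3 at 146 ± 1.38, KLF11 at 141.5 ± 16.5, KLF13 at 138 ± 7.55, KLF7 at 20.2 ± 0.721 and KLF9 at 10.9 ± 1.26. The libraries of neighbours in this order did not overlap, except those of KLF5 with KLF4, of KLF3 with KLF11 and of KLF11 with KLF13. In auxin KLF2, at 633 ± 91.4, stood above KLF10, at 405 ± 61.2, and KLF9, at 28.1 ± 7.80, stood above KLF7, at 21.6 ± 0.00824, with no overlap of libraries in either pair. KLF4, at 103 ± 18.9, lay below KLF13 (168 ± 16.1) and KLF3 (163 ± 12.03), both of which it had exceeded in control. KLF6 made up 36.8% and 47% of the summed per-kb level of the 10 genes in control and 51.3% and 57% in auxin, while KLF4 made up 7.27% and 5.21% and then 3.15% and 2.15%. The span counts introns and any isoform, so per-kb levels are averages over the annotated gene.

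**Figure D3:**
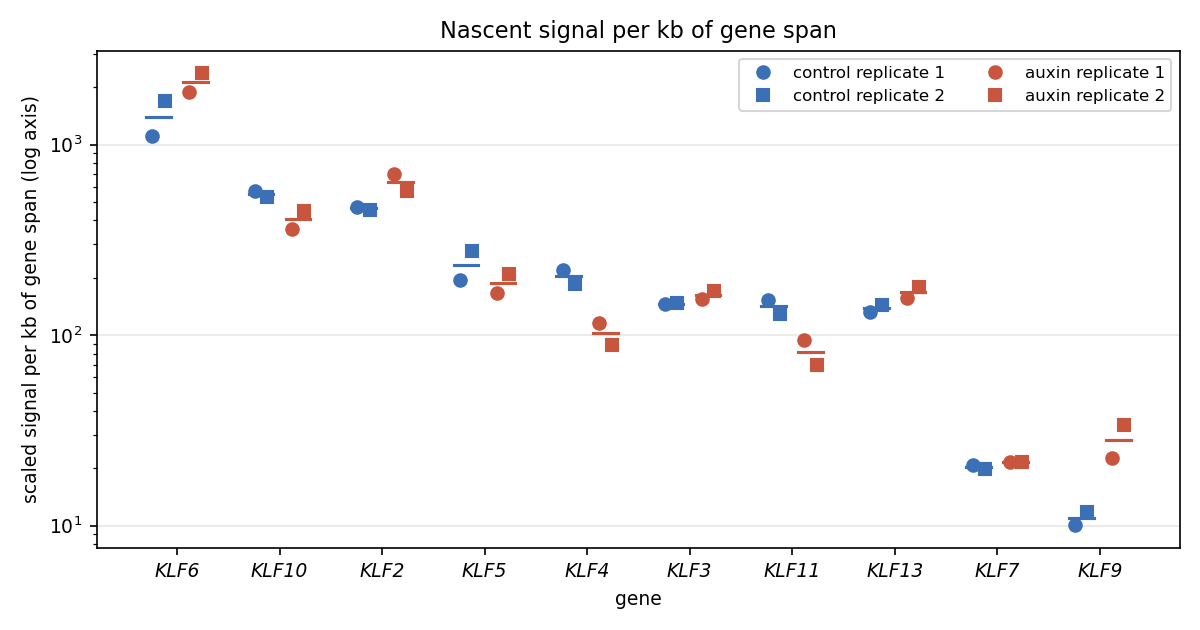
Scaled signal per kb of gene span (log axis) of the 10 KLF genes in each library, ordered by the control mean, with control in blue, auxin in red, replicate 1 as circles, replicate 2 as squares and the group mean as a bar. KLF6 is highest in all 4 libraries, and KLF9 is lowest in control (10.1 and 11.8 per kb) and above KLF7 in auxin (22.6 and 33.6).

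Cohesin shapes contacts between neighbouring genes and enhancers, so the nearest tested protein-coding gene on each side of each member, within 1000 kb and without overlap, was set beside it. This gave 18 genes, KLF4 and KLF6 having one on the lower side alone. Of the 18, limma called 0, against 0.732% of all tested genes, a share at which so short a list may well hold none. An unadjusted p under 0.05 was found for 5 (27.8% against 10.2%), and 9 had groups that did not overlap (50% against 38.2%). The flanks of KLF9 were SMC5, a subunit of the SMC5/6 complex 29.7 kb away, and TRPM3, a cation channel gene 114 kb away. SMC5 lay at 9303 and 12341 in control and 8709 and 10146 in auxin, and TRPM3 at 304 and 386 in control and 313 and 390 in auxin. The groups overlapped in both flanks of KLF9, and their log2 fold changes were -0.19 (SE 0.15) and 0.030 (SE 0.23), against 1.33 for KLF9. The smallest p among flanks was that of CYS1, a cilium gene whose end lies 1.94 kb from the end of KLF11: it lay at 599 and 507 in control and 893 and 824 in auxin, with a limma adjusted p of 0.211 (log2 fold change 0.64, SE 0.19), opposite in sign to KLF11. GRHL1, on the other side of KLF11, lay at 835 and 796 in control and 856 and 787 in auxin. RAD23B, the flank of KLF4, had a log2 fold change of -0.29 (SE 0.15), and PIBF1 beside KLF5 had -0.31 (SE 0.13), equal in size to that of KLF5. KLF12 is both a family gene and the upper flank of KLF5. Differences between a member and its flanks were not tested.

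**Figure D4:**
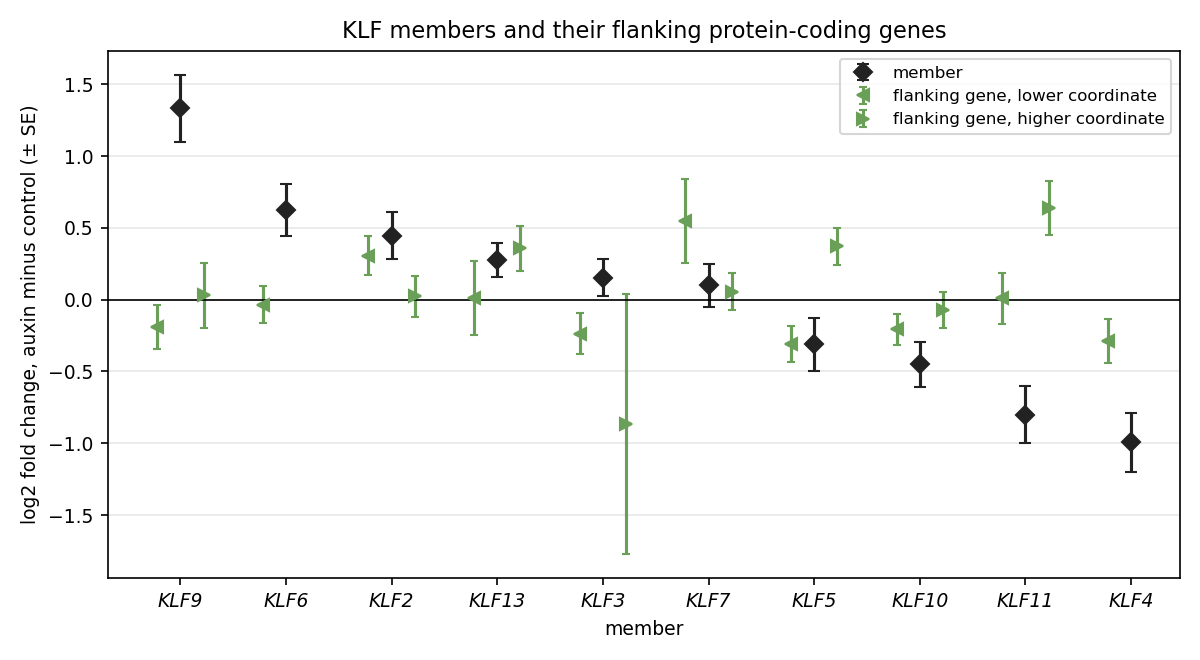
Log2 fold change (auxin minus control, ± SE) of each KLF member (black diamonds) and of its flanking protein-coding genes at lower and higher coordinates (green triangles). KLF9 stands at 1.33 with flanks at -0.19 and 0.030, and KLF11 at -0.80 with flanks at 0.010 and 0.64.

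Genes of proteins that work with KLFs and genes that KLFs are known to act on were taken from lists chosen with earlier results of these data known. Of 19 cofactor and upstream genes, all tested, limma called 0 (against 0.732% of all tested genes). At an unadjusted p under 0.05 there were 3 (15.8% against 10.2%), 7 had groups that did not overlap (36.8% against 38.2%), and the median log2 fold change was -0.042. The smallest p was that of CREBBP, a histone acetyltransferase that coactivates KLFs, at 23967 and 24275 in control and 28917 and 34257 in auxin, with a limma adjusted p of 0.195 (log2 fold change 0.38, SE 0.11). SIN3A, the corepressor of KLF9, KLF10, KLF11 and KLF13, lay at 9163 and 8097 in control and 7489 and 8207 in auxin, and its groups overlapped.

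Of 18 genes described as regulated by KLFs, 16 were tested and 2 were called (12.5% against 0.732% of all tested genes), 1 in each direction. An unadjusted p under 0.05 was found for 6 (37.5% against 10.2%), and 6 had groups that did not overlap (37.5% against 38.2%). CDKN1B, which encodes the cell cycle inhibitor p27, rose from 933 and 875 in control to 1963 and 2046 in auxin, with a limma adjusted p of 0.0129 (log2 fold change 1.15, SE 0.16). CCND1, which encodes cyclin D1 and is known to be activated by KLF5 and repressed by KLF4, fell from 27207 and 28593 to 17126 and 16078 (log2 fold change -0.75, SE 0.10, adjusted p = 0.0111). The median log2 fold change of the list was 0.0013. The calls did not hold on the deposited scale or without control replicate 2, where 0 of the list were called. ALPI, the intestinal alkaline phosphatase gene that KLF4 activates in differentiated enterocytes, was listed at 0 in all 4 libraries.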

How the data were processed

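EU-labelled nascent RNA was sequenced in 2 control and 2 auxin libraries, grouped by their titles. The authors deposited 1 table of values per gene and library, named read counts, with coordinates. Whether the values derive from counts of reads could not be settled here. Per the submitters' processing notes, Trimmomatic 0.39, Bowtie2 2.4.5 and deepTools 3.5.1 were used with the hg38 and dm6 builds; their roles, the annotation, the strand setting and the scaling are not given in the sources used here. Per the labels' protocols, labelled fly S2 RNA was mixed in before capture. The deposited signal values up to 20 steps were all whole multiples of 1 step per library (0.847, 1.04, 0.727 and 1.36 in control 1 and 2 and auxin 1 and 2, within 0.05 step), but of genes of at least 10 kb only 2 to 8 per library held 1 step and 141 to 221 held 2. The steps were therefore not treated as reads, and depth in reads is unknown. A column with a misspelt name was read as control replicate 2. Table starts count from 0 and are printed 1 higher. The start so printed equalled RefSeq's in 7 of the 10 KLF genes.

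Kept genes summed to 15 or more and reached, in 2 libraries or more, the share of a library's total that a value of 10 makes in the library of median total. Trimmed means of M-values (30% and 5% trimmed) set the scaling, which divided the libraries by 0.999, 1.01, 0.816 and 1.21. The log2(value + 1) was fitted over all 39464 tested genes with limma 3.58.1 (lmFit and eBayes with intensity trend, R 4.3.3), with Benjamini-Hochberg adjustment over all of them at 0.05. The fold changes understate the change of low genes. The procedure was run on simulated data with independent noise at the spreads of the same fit. Such a run checks the code and not whether the model suits these data. Python 3.11.15, pandas 2.3.3 and matplotlib 3.10.9 read tables and drew figures. The KLF genes, lists and tests were chosen with earlier results of these data known. Named genes were the 10 members, RAD21, overlapping or flanking genes that were called, both flanks of a called member, and in each list the called genes and the one with the smallest p. SP1, KLF1, KLF18, SIN3A, ALPI, GRHL1, RAD23B, PIBF1, LINC00392, LINC00393 and the overlapping genes and pseudogenes were named after their values were seen.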

Additional observations from a re-analysis of the deposited data

How the results depend on the processing

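No log2 fold change of a KLF gene changed sign under the alternatives run: median-ratio scaling, scaling by total signal, the deposited scale, no filter, a mean of at least 50, pseudocounts of 0.1 and 10, the replicate block and leaving out each library. KLF9 was called under each scaling, filter and pseudocount but the deposited scale, where it had a log2 fold change of 1.31 (limma adjusted p = 0.334) and the cause was not tested. Called genes then numbered 0 of 10 members, 0 targets and 55 in all, against 1, 2 and 289. At an adjusted p under 0.01, stricter by construction, they numbered 0, 0 and 82.

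Leaving out 1 library, the members called ranged from 0 to 4, targets from 0 to 3, other KLF and SP genes and cofactor genes from 0 to 1 each, and all genes from 132 to 681. The log2 fold change of KLF9 then ranged from 1.045 to 1.63, of KLF6 from 0.34 to 0.92, of KLF4 from -1.18 to -0.81, of KLF11 from -1.02 to -0.58 and of KLF5 from -0.55 to -0.060. The 4 members called without auxin replicate 1 were KLF4, KLF6, KLF9 and KLF11. A fit without 1 library takes its spread from the other group alone, so these calls are no support for the genes. Without auxin replicate 1 that spread was also 1 trend shared by all genes.

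No label says that a replicate number marks a shared culture or day, and 2 pairs are too few to tell; across genes the difference between replicates correlated between control and auxin with r = 0.231, or 0.462 where the mean reached 50. With the replicate block limma called 8 of 10 members, 2 of 15 other KLF and SP genes and 5 of 19 cofactor genes. It also called 6 of 16 targets, 6 of 18 flanking genes and 4273 of all 39464 tested genes, against 289 without the block. Calls thus rose over all genes and not in the KLF genes alone. Values were unmoved and limma adjusted p fell to 7.46e-09 for KLF6 (log2 fold change 0.62), 1.33e-09 for KLF4 (-0.99), 7.14e-08 for KLF11 (-0.80), 0.00114 for KLF10 (-0.45), 0.00306 for KLF2 (0.45), 0.0364 for KLF5 (-0.31) and 0.0417 for KLF13 (0.27). For KLF9, also called without the block, the limma adjusted p was 9.46e-15 (log2 fold change 1.33). KLF3 and KLF7 stayed above the threshold. Prior degrees of freedom were infinite with the block, on the deposited scale and without either auxin replicate, so genes shared 1 trend of spread in those fits.

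The planned count-model test was not run, since the values were not treated as read counts. With 2 libraries a group and unknown depth, small changes are mostly beyond detection.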

Other observations

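The table lists 10 KLF processed pseudogenes, copies of KLF messenger RNAs elsewhere in the genome. KLF4P1 lay at 414 and 338 in control and 257 and 277 in auxin, with a limma adjusted p of 0.491 (log2 fold change -0.48, SE 0.22). KLF3P1 lay at 190 and 212 in control and 229 and 308 in auxin (log2 fold change 0.40, SE 0.24, adjusted p = 0.670). KLF2P1 lay at 78.8 and 92.1 in control and 91.0 and 73.0 in auxin, and its groups overlapped, unlike those of KLF2.

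Among KLF targets, CCNE1, the cyclin E1 gene, lay at 2395 and 2986 in control and 1532 and 1560 in auxin, with a limma adjusted p of 0.0738 (log2 fold change -0.79, SE 0.17). CDKN1A, the p21 gene, lay at 5501 and 5651 in control and 8119 and 8013 in auxin (0.53, SE 0.12, adjusted p = 0.102). ARNTL, the clock gene also named BMAL1, lay at 2664 and 3263 in control and 3913 and 5927 in auxin (0.71, SE 0.20, adjusted p = 0.188). None of these passed the test, and the choice to name them followed a look at their values.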
